A study of Canis lupus familiaris with 33 samples.

Results

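The oxidative phosphorylation genes described here encode nuclear subunits of the respiratory chain and of ATP synthase. They were taken by symbol: every row whose symbol starts with NDUFA, NDUFB, NDUFC, NDUFS, NDUFV, UQCR, COX4, COX5, COX6, COX7, COX8 or ATP5, or is CYC1 or SDHA to SDHD, leaving out the assembly factors named NDUFAF. The rule found 40 of the 25096 genes in the table normalized by TMM (trimmed mean of M-values), of which 12202 carry a symbol and could be found by it. By symbol, 19 belong to complex I, 1 to complex II (SDHB), 5 to complex III, 8 to complex IV and 7 to complex V. Other subunits that the rule would take, SDHA and COX5A among them, are not analysed here. NDUFA4L2, COX7A2L, ATP5S and ATP5SL carry such symbols but are not established structural subunits of the complex they are counted under.

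RNA was sequenced from 4 samples of normal bladder mucosa and 29 invasive urothelial carcinomas (iUC) of dogs. The normals, labelled as normal urothelial cells, were the mucosal layer dissected from bladders of dogs euthanized for other conditions. The tumors were high-grade, naturally occurring cancers, each from a different dog that had received no treatment, biopsied by cystoscopy and rich in epithelial cells by histology. No age or strain is given by group, and dogs of any age, sex or breed were taken for the tumors. The labels do not say that the 4 normals came from 4 animals, so p-values measure the spread between these samples.

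In the inner mitochondrial membrane, complexes I and II pass electrons from NADH and succinate to ubiquinone, complex III passes them on to cytochrome c, and complex IV passes them to oxygen. Complexes I, III and IV pump protons as they do so, and complex V lets the protons flow back and makes ATP. Most subunits are encoded in the nucleus and must match the mitochondrially encoded core subunits, and a few subunits of complex IV have isoforms used mainly in muscle, in lung or when oxygen is low.

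Every value below is a log2 normalized expression value relative to the gene's own median over the 33 samples, so 0 is the middle sample and levels of different genes cannot be compared. Many genes have a lowest value that several samples share exactly. It was taken here to mean no measured signal, which the sources used here do not state. Between 755 and 1019 genes were listed at their lowest value in a normal, and between 3699 and 8175 in a tumor. A difference was called where limma gave a Benjamini-Hochberg adjusted p of at most 0.05 over all 24471 genes tested.

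The tissue labels were set against marker genes. All 7 smooth muscle markers tested were lower in the tumors, and their mean level was 4.27 to 6.19 in the normals and -1.43 to 3.25 in the tumors. The 5 striated muscle, 4 fibroblast and 1 Schwann cell markers were also all lower, while 6 of 8 urothelial markers were higher (-2.34 to -0.75 in the normals, -1.31 to 0.73 in the tumors). Of 7 immune markers 1 was higher and 1 lower, and none of 4 endothelial markers and 1 adipocyte marker was called. Of 137 olfactory receptor genes, which bladder is not known to use, 100% lay above their lowest value in each normal, against 7.30% to 92.0% in the tumors (median 21.2%). The part of these differences in the results on respiratory genes was not tested. In bulk tissue, fewer cells of a type and less RNA per cell cannot be told apart.

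In the TMM table, most of the respiratory chain and ATP synthase genes tested were called higher in the iUC samples. Of 39 members tested, 27 (69.2%) rose, 2 fell (NDUFC1 and COX6A2) and 10 were not called. Over all genes tested 22.9% were called higher and 48.1% lower, and 45.8% were lower by at least 2-fold, as both falling members were. In a separate fit of the 18418 genes whose median lay above their lowest value, 29.6% of those genes and 25 members were called higher. The remaining member, COX7A1, the heart and skeletal muscle isoform of a small complex IV subunit, had the same value in all 33 samples and was not tested.

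The rises were small. They ran from 0.38 to 1.16 on the log2 scale (1.30-fold to 2.24-fold), and the median over the 39 members was 0.61, against -0.84 over all genes tested and -0.01 over those with a median above the lowest value. A rise of at least 2-fold was called for 7 members, where 10.7% of all genes reached that size: NDUFV2, NDUFA13, UQCRQ, UQCRC2, ATP5A1, ATP5D and ATP5G1. In 6 members (15.4%) every tumor lay above every normal, against 7.63% of all genes tested, and in no member did every tumor lie below every normal, as 28.5% of all genes did. These were NDUFV2, NDUFA13, NDUFB6, UQCRC2, ATP5A1 and ATP5D. In the table that the authors normalized with DESeq, this held for 0 members and 3.41% of all genes. Counts of tumors above or below every normal are from the TMM table unless stated, and they depend on that scaling.

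The scaling of the samples set how many of these rises were called. In the DESeq table the members' fold changes were 0.30 lower on the log2 scale (median difference), and the median over members was 0.31. There 14 members were called higher (35.9%, against 14.9% of all genes), the same 2 were lower by at least 2-fold (52.5% of all genes were called lower and 49.1% by that size), and none reached a 2-fold rise, a size that 5.62% of all genes reached. All 14 were also called in the TMM table. Without normal 1, 18 members were called higher (20.3% of all genes) and 4 by at least 2-fold (10.5% of all genes). Without normal 4 these counts were 20 (19.6% of all genes) and 3 (9.08%). The count of 2-fold rises was therefore near the share over all genes without either normal.

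**Figure D1:**
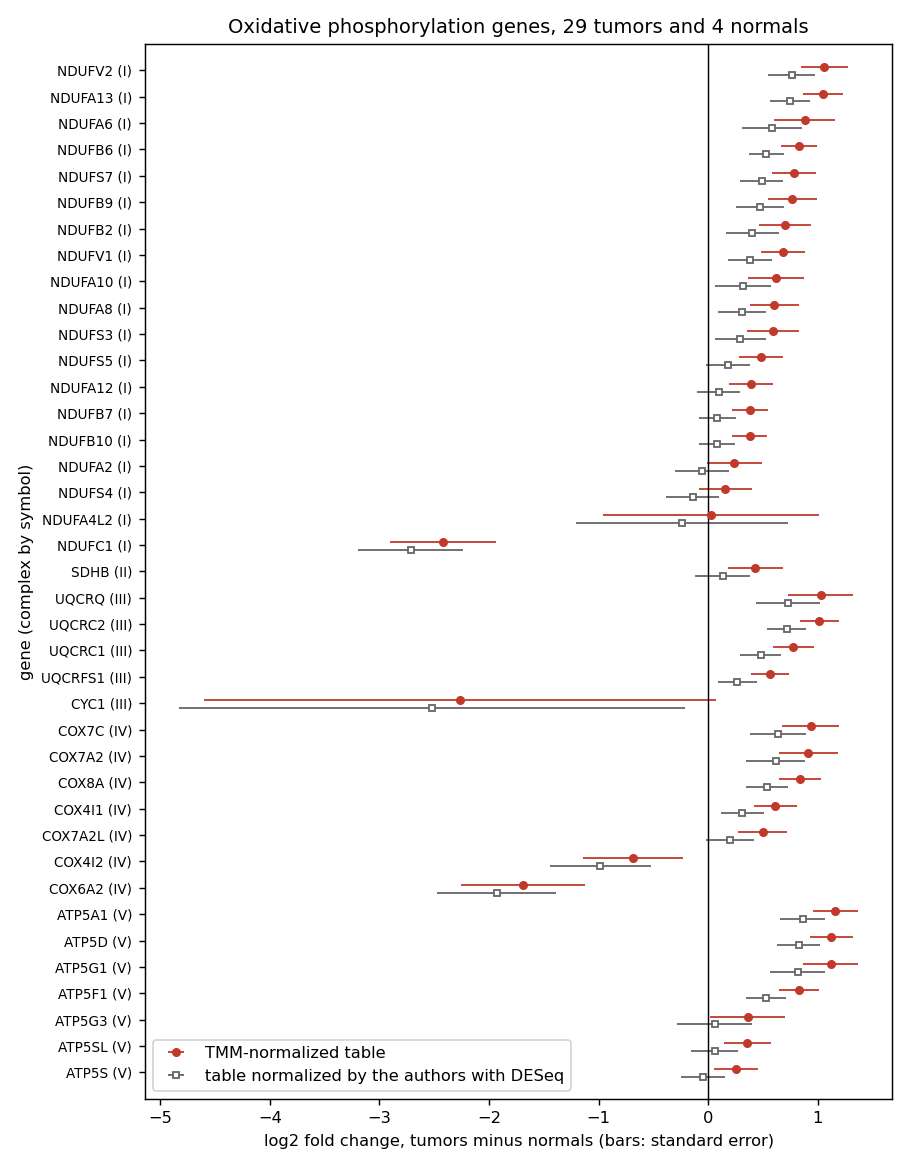
Log2 fold change, tumors minus normals, with its standard error for the 39 members tested, ordered by complex (in parentheses). Filled circles are the TMM table and open squares the DESeq table. Of the circles 35 lie above 0, and NDUFC1, CYC1 and COX6A2 lie farthest below it.

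In complexes I, III, IV and V most members tested were called higher in the TMM table. In complex I 14 of 19 members rose (median log2 fold change 0.60), in complex III 4 of 5 (0.78), in complex IV 5 of 7 tested (0.61) and in complex V 4 of 7 (0.83). In the DESeq table the counts of rising members were 4, 3, 3 and 4 in that order. The 4 of 19 in complex I stand beside 14.9% of all genes called higher in that table, and the TMM counts beside 22.9%. Differences between complexes were not tested.

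Sample by sample, most tumors lay above the normals in the TMM table. The median over the 39 members was -0.77, -0.54, -0.30 and -0.72 in normals 1 to 4 (mean -0.58 ± 0.22, SD, n = 4). In the 29 tumors it ran from -0.34 in tumor 25 to 0.76 in tumor 6, with a median of 0.04, and 27 tumors lay above every normal. After DESeq normalization this held for 20 tumors, with the normals at -0.44, -0.27, -0.05 and -0.40. Normal 3 was the highest of the normals in all 5 complexes.

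By complex, 29 tumors exceeded every normal in the median of complex V, 28 in that of complex III, 27 in that of complex I and 23 in that of complex IV. Each median is over all tested members, with CYC1 in complex III, COX4I2 and COX6A2 in complex IV, and ATP5S and ATP5SL in complex V. The complexes were not compared by a test. In 23 tumors all 4 medians lay above every normal, and in no tumor did all 4 lie within or below the range of the normals. In a single tumor, 18 to 35 of the members exceeded every normal (median 28). After DESeq normalization, 26 tumors exceeded every normal in complex V, 26 in complex III, 18 in complex I and 13 in complex IV. There 9 tumors did so in all 4 complexes and 1 in none, and 8 to 32 members exceeded every normal in a single tumor (median 23). The share of all genes that exceed every normal in a single tumor was not counted. The counts of members per tumor therefore do not show whether the members stand out from other genes.

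**Figure D2:**
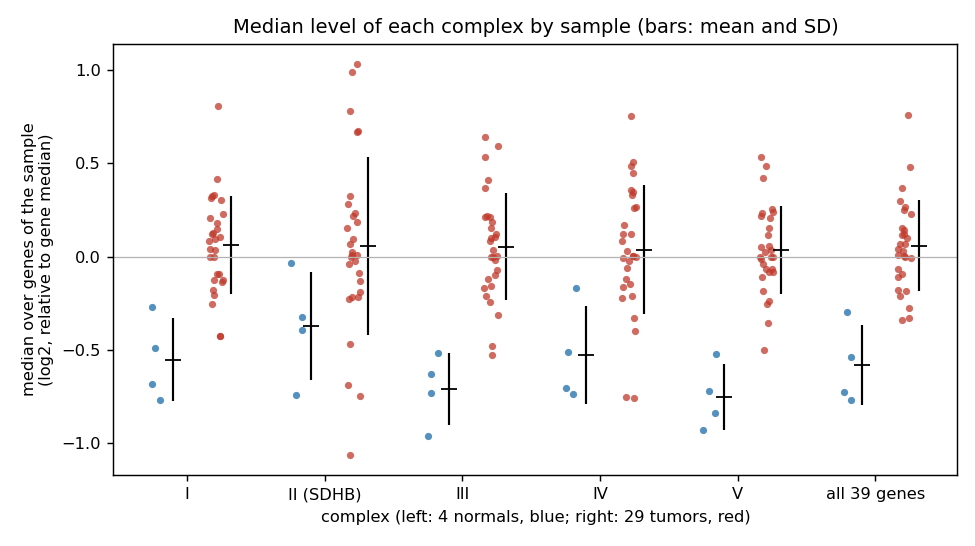
Median over the tested genes of each complex in every sample in the TMM table (log2, relative to each gene's median), normals in blue and tumors in red, with the mean and SD of each group as bars. Complex II is SDHB alone. In complex V the 29 tumors lie above the 4 normals, and in complex II the groups overlap.

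Over the 29 tumors, the median SD of the 39 members tested, called or not, was 0.417, against 0.644 over all genes tested, and 33 of the 39 lay below the latter.

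Complex I, NADH dehydrogenase, held the largest group. NDUFV2, an iron-sulfur subunit of the module that oxidizes NADH, stood at -0.96, -0.94, -0.77 and -1.16 in normals 1 to 4, and at -0.60, 0.07 and 1.11 in the lowest, median and highest tumor. The groups did not overlap, and the rise was 1.06 (SE 0.22, adjusted p = 6.05e-05). NDUFA13, an accessory subunit also known as GRIM-19, was at -1.15, -0.997, -0.67 and -1.13 in the normals and at -0.56, 0.06 and 0.73 in the tumors. It too was higher in every tumor than in any normal, by 1.05 (SE 0.18, adjusted p = 5.26e-06).

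NDUFA6, an accessory subunit of the arm that reaches into the matrix, was at -0.96, -0.65, -0.46 and -1.13 in the normals and at -1.02, 0.05 and 1.14 in the tumors. Of the tumors 26 exceeded every normal, and the rise was 0.88 (SE 0.28, adjusted p = 0.0054). It was not called in the DESeq table (0.58, adjusted p = 0.0627). Another 11 complex I members rose, by 0.38 to 0.83, and of these 9 were not called in the DESeq table, 7 not without normal 1 and 6 not without normal 4. NDUFA12, NDUFA2, NDUFS4 and NDUFA4L2 were not called.

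NDUFC1, a small accessory subunit of the membrane arm, went the other way. It was at 2.31, 0.66, 2.28 and 2.57 in the normals, and at -2.63, -0.26 and 0.87 in the lowest, median and highest tumor. Normals 1, 3 and 4 lay above every tumor, and 28 of 29 tumors lay below every normal. It fell by 2.42 on the log2 scale (SE 0.48, adjusted p = 4.08e-05), and it was the only complex I member called lower, where 48.1% of all genes were.

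NDUFA4L2, a relative of the complex IV subunit NDUFA4 and known as a target of hypoxia signalling, was the complex I symbol that varied most among tumors. It was at -0.04, 1.08, -0.32 and 1.76 in the normals. In the tumors it ran from -1.13, the lowest value, at which 8 tumors were listed, to 6.84, and its SD was at the 97.8th percentile of all genes. The group means differed by 0.03 (SE 0.98, adjusted p = 0.982), a difference whose sign changed in the DESeq table (-0.24), without normal 1 (-0.19) and without normal 3 (-0.29).

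Complex II, succinate dehydrogenase, was represented by SDHB, its iron-sulfur subunit. SDHB was at -0.74, -0.32, -0.03 and -0.40 in the normals and at -1.06, 0.01 and 1.04 in the tumors. Of the tumors 18 exceeded every normal and 2 were below all of them. The difference of 0.43 (SE 0.25) did not pass the test (adjusted p = 0.122).

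In complex III, the cytochrome bc complex, both core proteins rose. UQCRC2 was at -1.14, -0.90, -0.69 and -1.03 in the normals and at -0.69, 0.03 and 0.71 in the tumors. Every tumor lay above every normal, narrowly so for the lowest tumor, and the rise was 1.02 (SE 0.18, adjusted p = 7.73e-06). UQCRC1 was at -0.92, -0.76, -0.42 and -0.96 in the normals and at -0.72, 0.08 and 0.66 in the tumors, with a rise of 0.78 (SE 0.19, adjusted p = 0.000512).

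The small subunit UQCRQ was at -0.73, -0.63, -0.51 and -1.21 in the normals and at -0.65, 0.08 and 1.65 in the tumors. It exceeded every normal in 27 tumors, with a rise of 1.02 (SE 0.29, adjusted p = 0.00249). UQCRFS1, the Rieske iron-sulfur protein, rose by 0.56 (adjusted p = 0.00535), but was not called in the DESeq table (0.27, adjusted p = 0.184).

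CYC1, a heme-bearing cytochrome of complex III, fell into 2 sets of tumors. It was at -0.58, -0.51, -0.23 and -0.75 in the normals. In 19 tumors it lay between -0.09 and 1.35 (median 0.68), in all 19 above every normal. In the other 10 tumors it was listed at its lowest value, -9.25. Its SD among tumors was the largest of all genes tested, and the difference of the means (-2.26, SE 2.34) was not called (adjusted p = 0.388).

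Its neighbours in the RefSeq gene order of the dog are GPAA1, which is not described here, and SHARPIN. SHARPIN, a component of a ubiquitin ligase complex, separated the same tumors. SHARPIN was at -1.61 to -1.16 in the normals, at -0.86 to 0.35 in the 19 tumors with a CYC1 value, and at 0.64 to 1.74 in the 10 tumors with CYC1 at its lowest value. SHARPIN was thus highest exactly where CYC1 was listed at its lowest value. CYC1 was 1 of 9 genes in the table with a median over 64-fold above the lowest value and at least 2 samples at it. How reads were assigned between neighbouring or overlapping genes is not given in the sources used here, and its part in these values was not tested.

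**Figure D3:**
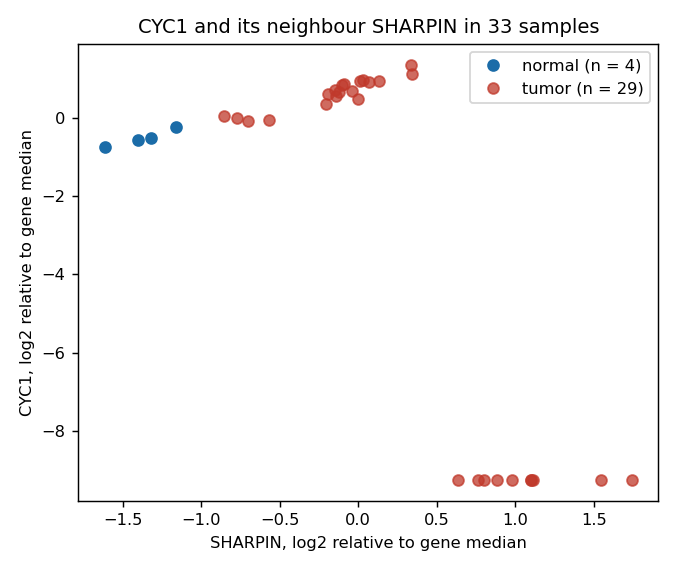
CYC1 against its neighbour SHARPIN in the 33 samples (both log2, relative to the gene's median), normals in blue and tumors in red. The 10 tumors with CYC1 at -9.25 have the highest SHARPIN values, 0.64 to 1.74.

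In complex IV, cytochrome c oxidase, 5 of 7 genes tested rose and the muscle isoform COX6A2 fell. COX8A, a small subunit used in most tissues, was at -1.11, -0.72, -0.50 and -1.09 in the normals and at -0.85, 0.01 and 0.68 in the tumors. It was higher in 26 tumors than in any normal, by 0.84 (SE 0.19, adjusted p = 0.000267).

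COX7C rose by 0.93 (SE 0.26, adjusted p = 0.00171), from -0.86 ± 0.34 (SD, n = 4) in the normals to 0.07 ± 0.49 (SD, n = 29) in the tumors. COX7A2, the broadly used partner of COX7A1, rose by 0.91 (SE 0.27, adjusted p = 0.00324), from -0.89 ± 0.14 to 0.02 ± 0.53. In each of these genes 26 tumors exceeded every normal. COX7A2L, a factor that joins complexes III and IV, rose by 0.50 (adjusted p = 0.045). It was not called in the DESeq table (0.20, adjusted p = 0.43), nor without normal 1, 2 or 4.

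COX6A2, the heart and skeletal muscle isoform of subunit VIa, fell. It was at 2.76, 2.04, -0.17 and 1.72 in the normals, and 14 tumors were listed at its lowest value of -1.01, with a median tumor at -0.02 and the highest at 3.00. All 4 normals lay within the range of the tumors, and 1 tumor lay above every normal. It fell by 1.69 on the log2 scale (SE 0.56, adjusted p = 0.00847), and it was not called without normal 1 (-1.30, adjusted p = 0.0725). The 5 other striated muscle genes, which were not chosen as members, also fell, as described above, and so did 136 of the 137 olfactory receptor genes. The part of either in the value of COX6A2 was not tested.

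**Figure D4:**
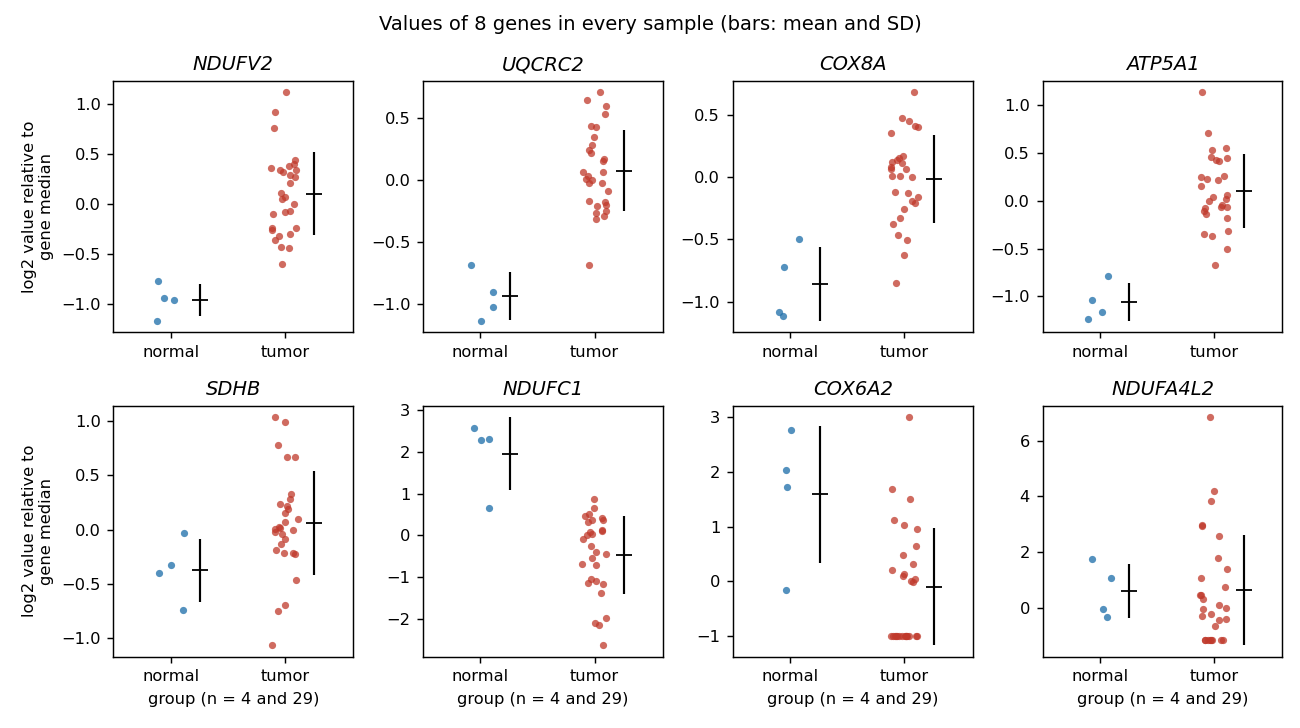
Values of 8 members in every sample (log2, relative to the gene's median; each panel has its own vertical scale), normals in blue and tumors in red, with the mean and SD of each group as bars. NDUFV2, UQCRC2 and ATP5A1 do not overlap between groups, SDHB does, NDUFC1 and COX6A2 are higher in the normals, and NDUFA4L2 reaches 6.84 in a tumor.

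COX4I1 and COX4I2 encode alternative forms of the same regulatory subunit, the first used in most tissues and the second mainly in lung and at low oxygen. COX4I1 was at -0.93, -0.51, -0.16 and -0.70 in the normals and at -0.90, 0.03 and 0.75 in the tumors. It rose by 0.61 (SE 0.20, adjusted p = 0.00639), but not in the DESeq table (0.31, adjusted p = 0.154) or without normal 1 (0.49, adjusted p = 0.0502). COX4I2 was at 1.26, 0.03, 0.56 and 0.94 in the normals and at -1.85, -0.21 and 2.08 in the tumors, and its difference of -0.69 (SE 0.46) was not called (adjusted p = 0.179).

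Their difference within a sample does not depend on the scaling between samples. It can still depend on what the tissue samples contain. The part of the marker and olfactory receptor differences described above in it was not tested. COX4I2 minus COX4I1 was 2.19, 0.54, 0.72 and 1.63 in the normals (mean 1.27 ± 0.78, SD, n = 4) and ran from -1.76 over a median of -0.13 to 2.43 in the tumors (mean -0.02 ± 1.06, SD, n = 29). In 22 tumors the difference lay below every normal. The shift between groups was -1.30 (two-sided exact permutation test over 40920 assignments of the samples, p = 0.0242, where the smallest possible is 2.44e-05). It did not pass without normal 1 (-0.99, exact p = 0.127) or without normal 4 (-1.18, exact p = 0.0704). This was the only isoform pair of the complex with both members tested. The pairs were listed with earlier results of these data known, so these p-values are descriptive and not independent evidence.

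**Figure D5:**
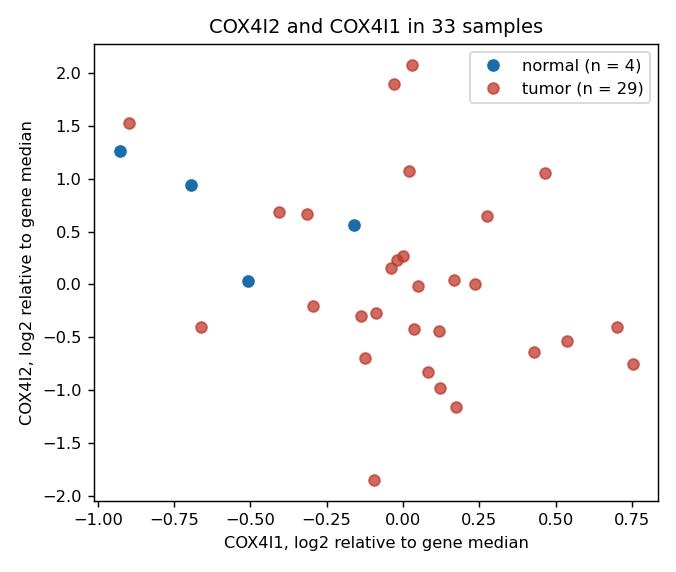
COX4I2 against COX4I1 in the 33 samples (both log2, relative to the gene's median), normals in blue and tumors in red. COX4I1 is below 0 and COX4I2 above 0 in the 4 normals, and the tumors are spread over both axes. Since 0 is the median of the 33 samples for each gene, only the positions of the groups relative to each other can be read.

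Complex V, ATP synthase, held the largest rises. ATP5A1, the alpha subunit of the catalytic head, was at -1.24, -1.04, -0.79 and -1.17 in the normals and at -0.67, 0.04 and 1.13 in the tumors. The groups did not overlap, and the rise was 1.16 (SE 0.21, adjusted p = 7.8e-06), the largest of all members. ATP5D, the delta subunit of the central stalk, was at -1.28, -0.75, -1.41 and -0.93 in the normals and at -0.69, 0.05 and 0.76 in the tumors. It was also higher in every tumor, by 1.12 (SE 0.20, adjusted p = 6.69e-06).

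ATP5G1 and ATP5G3 encode the same mature protein, subunit c of the rotating ring, from separate genes. ATP5G1 was at -1.41, -0.92, -0.68 and -1.15 in the normals and at -0.84, 0.08 and 0.96 in the tumors, a rise of 1.12 (SE 0.25, adjusted p = 0.000225). ATP5G3 was at -0.67, -0.03, 0.11 and -0.76 in the normals and at -1.67, 0.15 and 1.49 in the tumors, a difference of 0.36 (SE 0.34) that was not called (adjusted p = 0.348). Whether the changes of both genes differ was not tested. ATP5F1, a subunit of the peripheral stalk, rose by 0.83 (adjusted p = 0.000173), while ATP5S and ATP5SL were not called. Many of these genes have near-identical processed copies in mammalian genomes, and how reads shared with a copy were counted is not given in the sources used here.

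Other genes of the pathway were counted in the same fit, and their difference from the members was not tested. The counts below stand beside 22.9% of all genes higher and 48.1% lower in the TMM table, and 14.9% and 52.5% in the DESeq table. Of 33 assembly factors for the complexes, 22 rose and none fell (median log2 fold change 0.66). Among them UQCC1, needed to build complex III, rose by 1.06 (SE 0.13, adjusted p = 7.91e-09), and COX18 and COA7, which serve complex IV, rose by 1.22 and 1.28. With the DESeq normalization, 12 assembly factors were higher and 1 lower.

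Of 14 citric acid cycle and pyruvate dehydrogenase genes, which feed electrons to the chain, 11 rose and 1 fell (median 0.68). DLAT, the acetyltransferase of pyruvate dehydrogenase, rose by 1.07 (SE 0.16, adjusted p = 5.89e-07) and was higher in every tumor than in any normal. MDH2, mitochondrial malate dehydrogenase, was the exception: it fell by 3.21 on the log2 scale (SE 0.42, adjusted p = 3.48e-08) and was lower in all 29 tumors than in any normal. Over all genes tested, every tumor lay above every normal in 7.63% and below every normal in 28.5%. With the DESeq normalization, 5 genes of this list were higher and 1 was lower.

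Of 11 genes that copy or transcribe mitochondrial DNA or handle its RNA, 9 rose and none fell (median 0.80). With the DESeq normalization, 5 were higher and none lower, with a median of 0.51. TFAM, which packages mitochondrial DNA and starts its transcription, rose by 1.34 (SE 0.21, adjusted p = 1e-06), and POLRMT, the mitochondrial RNA polymerase, rose by 1.02. Of 6 regulators of mitochondrial biogenesis 3 rose: PPARGC1A, the coactivator PGC-1 alpha, by 1.39 (SE 0.44, adjusted p = 0.00599), the nuclear receptor ESRRA by 1.38 (SE 0.27, adjusted p = 2.55e-05) and the transcription factor NRF1 by 0.32 (SE 0.11, adjusted p = 0.0125). PPARGC1B (-0.36), PPARA (0.33) and PPARD (0.61) were not called. The median of this list was 0.47, and 0.17 with the DESeq normalization. In the DESeq table PPARGC1A and ESRRA were still called (1.09 each) and NRF1 was not (0.02, adjusted p = 0.894).

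Of 13 carriers and electron entry genes 7 rose and none fell (median 0.36). With the DESeq normalization, 5 were higher and 1 lower, and the median was 0.06. CYCS, cytochrome c itself, rose by 0.87 (SE 0.25, adjusted p = 0.00248), VDAC1, the main channel of the outer membrane, by 1.30 and ETFDH, which passes electrons from fatty acid oxidation to ubiquinone, by 1.29. SLC25A4, the adenine nucleotide carrier of heart and muscle, differed by -0.59 (SE 0.29, adjusted p = 0.066) and was called lower in the DESeq table (-0.89, adjusted p = 0.00683) and without normal 1 (-0.83, adjusted p = 0.0218).

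The members were set beside the protein genes of both ribosomes. Of 50 mitochondrial ribosomal protein genes 32 rose and 1 fell (median log2 fold change 0.61). Of 53 cytosolic ribosomal protein genes 7 rose and 7 fell (13.2% each, median 0.23), where 22.9% of all genes tested were called higher and 48.1% lower. With the DESeq normalization, 15 of the mitochondrial ribosomal genes were higher and 3 lower (median 0.31), and 2 of the cytosolic ones were higher and 7 lower (median -0.07). The difference between these lists and the oxidative phosphorylation genes was not tested.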

How the data were processed

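Libraries were made from ribosomal RNA-depleted total RNA and sequenced as paired ends. Per the labels, the authors aligned the reads to CanFam 3.1 with Strand NGS 3.1. The authors deposited 2 gene tables, normalized by TMM and by DESeq, whose values are log2 normalized expression minus the gene's median over the 33 samples. Read counts and depth per sample are not given in the sources used here, so no counting interval is given. In each of them, 1 incomplete last line was left out, and no column of values was without a sample (0).

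The TMM table was the main one. Genes above their shared lowest value in at least 4 samples were fitted with limma 3.58.1 in R 4.3.3 (lmFit and eBayes without a mean-variance trend), tumor against normal, two-sided, with Benjamini-Hochberg adjustment over all genes tested. A list is described by counts of calls and its median, with no list test. The isoform difference was tested by exact permutation over samples (scipy 1.17.1).

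The members and lists were chosen with earlier results of these data known. Genes were named by rule: in each complex up to 3 members with the largest called rise and up to 3 with the largest called fall, SDHB, CYC1, the members of listed isoform pairs that are present in the table (NDUFA4L2 is one, its partner NDUFA4 is not analysed here), and the member with the lowest p where none was called. NDUFB6, UQCRFS1, COX7A2L, ATP5G3, ATP5F1, uncalled members listed by name, SHARPIN and the genes named from other lists were named after their values were seen. Of the 40 symbols, 32 matched RefSeq (UU_Cfam_GSD_1.0), used for names and neighbours only. Alternatives were the table the authors normalized with DESeq, a mean-variance trend, a variance weight per group, other filters, centring of samples, leaving out each normal, and established subunits only.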

Additional observations from a re-analysis of the deposited data

Results flagged for a closer look

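NDUFC1 in normal 2 stood apart from the other normals. Its value was 0.66 (0.659 before rounding to 2 decimals), against 2.28 to 2.57 in the other 3, and the gap to the nearest of them was 0.845 of the range of the 4 normals. Chance gives such a gap in about 1 of 20 groups. The normals of many members were looked at, so such a gap in 1 of them is not unusual. The fall of NDUFC1 was called with and without normal 2.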

How the results depend on the processing

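With the DESeq normalization, 14 members were called higher, 0 by at least 2-fold, and the median log2 fold change was 0.31. Leaving out each normal in turn gave 18 to 27 members higher, 3 to 8 higher by at least 2-fold, 1 to 2 lower, 1 to 2 lower by at least 2-fold, a median of 0.54 to 0.75, and a COX4I2 minus COX4I1 shift of -1.54 to -0.99. NDUFA4L2 turned to -0.24 in the DESeq table, and without single normals it ran from -0.29 to 0.41, below 0 without normal 1 (-0.19) and normal 3. Also in the DESeq table, 3 uncalled members turned below 0: ATP5S (-0.046), NDUFA2 (-0.060) and NDUFS4 (-0.14). Over the 39 members tested and all fits, 344 values kept their direction and side of the threshold and 40 lost the call, 13 of them in the DESeq table, 10 without normal 1, 7 without normal 4, 4 without normal 2, 4 with a variance weight per group and 2 among genes with a median above the lowest value. With a variance weight per group 23 members were higher, and among established subunits 26 of 35. No paired analysis was possible because the labels give the normals and tumors no shared replicate numbers. Only 4 normals set the level of that group, and the tables hold no counts from which depth could be read.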
